A study of Rattus norvegicus with 11 samples.

Results

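Neuropeptide genes of the rat hippocampus were compared between a ketogenic diet, in which fat replaces most carbohydrate so that the liver makes ketone bodies, and a control diet. A list of 10 genes was chosen with earlier results of these data known. Of them, Npy, Sst, Cck, Penk, Pdyn, Tac1, Vip, Gal and Scg2 had a probe set whose platform annotation gave that symbol alone, 1 each. Thus 9 of the 10412 genes with such a probe set were described. Cort, which encodes cortistatin, was dropped because its 3 probe sets were annotated to several neighbouring genes together. The 11 arrays were made from total RNA of hippocampus, 5 from rats on the ketogenic diet and 6 from rats on the control diet, and the labels credit the ketogenic diet with preventing epileptic seizures. The labels used here name no strain, sex, age, diet composition or time on the diet. They also do not say whether each array stands for a separate animal, and the p-values then cover only the spread between arrays, which may be technical.

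Neuropeptides are cut from larger precursors inside dense core vesicles and act on G protein-coupled receptors. In the hippocampus most of them are made by interneurons that also release GABA, such as the somatostatin and neuropeptide Y cells of the dentate hilus, and dynorphin is known from the mossy fibres of granule cells. Neuropeptide Y, somatostatin, galanin and dynorphin are known to dampen excitatory transmission, and their levels are known to change after seizures.

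The median deposited log2 intensity was 6.32 to 6.46 on ketogenic arrays and 6.48 to 6.56 on control arrays, a difference that quantile normalization removes, and after it the values are given as log2 intensities. Of the markers fixed for hippocampal principal cells, 6 of 8 were measured above the filter on dim probe sets, among them Prox1, a transcription factor of dentate granule cells, and 2, Camk2a (1.34) and Fibcd1 (0.47), were called higher on the ketogenic diet. The summed log2 level of the 6 was 12.12 to 12.32 on ketogenic arrays and 11.80 to 12.10 on control arrays, with no overlap. That sum includes Camk2a, with means of 10.65 and 9.31. Of the 6 genes 3 had negative log2 fold changes, Prox1 (-0.14), Wfs1 (-0.05) and Neurod2 (-0.06), and the list median was 0.03. Markers of red blood cells were called lower in 4 of 4 tested (median log2 fold change -1.10, summed log2 level 8.21 to 8.59 on ketogenic arrays and 10.19 to 10.66 on control arrays). Those of choroid plexus were called lower in 3 of 6 (9.18 to 9.91 on ketogenic arrays and 9.56 to 11.27 on control arrays). Alas2 of the red cell list and Cldn2 of the choroid plexus list had ketogenic means of 4.95 and 4.98, below the filter level of 5.17, and were tested only through their control values. Calls numbered 0 among 3 of hypothalamus and amygdala, 4 of thalamus and 4 of neurons in general (limma), with 2, 1 and 1 at an unadjusted p under 0.05. Over all tested probe sets 8.62% were called higher, 7.87% were called lower and 33.3% had an unadjusted p under 0.05. Ketogenic replicate 3, whose title also carries a different ending, stood apart from its diet. Its mean correlation was 0.952 with the other ketogenic arrays and 0.961 with the control arrays, and results that rest on it are given with and without it. The log2 ratio of 3 prime to 5 prime control probe sets, a measure of RNA quality and labelling, was 0.13 to 0.34 on ketogenic arrays and -0.07 to 0.15 on control arrays for Gapdh (exact permutation test, two-sided, p = 0.00649, adjusted p = 0.00812 over 5 array measures). For actin it was 0.75 to 0.99 on ketogenic arrays and 0.49 to 0.75 on control arrays (exact permutation p = 0.00216, the smallest that 5 against 6 arrays allow, adjusted p = 0.00541). The part of these array and marker differences in the gene values was not tested. Covariate fits are given in the closing section. The actin ratios did not overlap between diets, so fits with the ratios cannot tell diet and RNA quality apart.

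Promoter sequences of 7 of the 9 genes were found in RefSeq (GRCr8), each with 250 bases before and 50 after the annotated start. Cck and Penk had none and were not searched. They were searched on both strands for TGACGTCA, the palindromic cAMP response element first described in the somatostatin gene, and for TGACG, its shorter form, which the palindrome also contains. Of the 7 promoters 2 held the palindrome, those of Sst and Scg2, against 1.83% of all 33469 promoters of the same length. The Sst match began at position 253 of its window, after the annotated start. The shorter form was in 5 of the 7, against 21.2% of all promoters. No match was found in the Npy and Pdyn windows, which says only that these letters are not there. The matches are shown because they are a sequence feature that some members share and others lack, with the match in capitals and 16 bases on either side:
Sst: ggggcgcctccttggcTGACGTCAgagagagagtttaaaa
Scg2: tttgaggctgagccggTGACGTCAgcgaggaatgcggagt
Vip: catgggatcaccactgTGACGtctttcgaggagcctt
Gal: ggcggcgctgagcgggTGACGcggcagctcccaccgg
Tac1: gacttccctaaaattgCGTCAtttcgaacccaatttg
The stretches lie at chr11:90461532-90461571 on the plus strand for Sst, chr9:88256966-88257005 on the minus strand for Scg2, chr1:44470367-44470403 on the plus strand for Vip, chr1:210084615-210084651 on the minus strand for Gal, and chr4:36645361-36645397 on the plus strand for Tac1, where the match is the reverse complement of the shorter form.

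The comparison of the diets asked which of these peptide genes differ between them, and none passed the test. Of the 8 tested neuropeptide genes 0 were called higher and 0 lower (limma, adjusted p under 0.05), and 0 had an unadjusted p under 0.05, while 16.5% of all 11899 tested probe sets were called and 33.3% had an unadjusted p under 0.05. Log2 fold changes, ketogenic minus control, were positive for 4 of the 8 and negative for the other 4, with a median of -0.012 against a median of -0.0041 over all tested probe sets. Their median absolute log2 fold change was 0.15, against 0.17 over all tested probe sets. In all 9 genes the groups overlapped, whereas they did not overlap in 6.99% of tested probe sets.

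**Figure D1:**
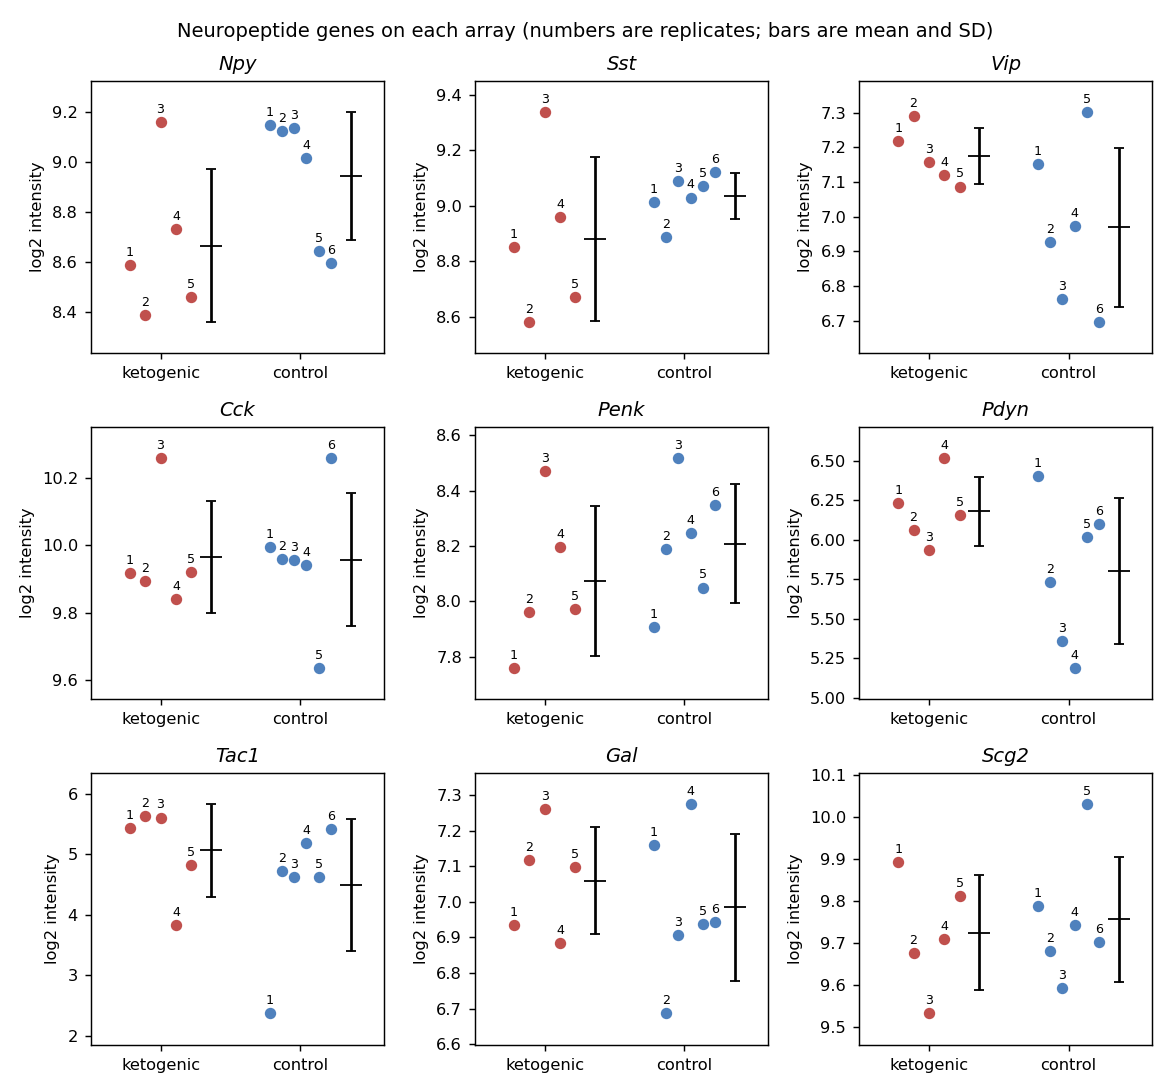
Normalized log2 intensity of the 9 neuropeptide genes on each array, ketogenic arrays in red on the left and control arrays in blue on the right of each panel, with replicate numbers and, beside each group, the mean and SD (n = 5 ketogenic, n = 6 control). The groups overlap in every panel, and ketogenic replicate 3 is the highest ketogenic array for Npy, Sst, Cck, Penk and Gal.

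Npy encodes neuropeptide Y, a peptide of hilar and other interneurons that reduces glutamate release. Ketogenic replicates 1 to 5 had Npy at 8.59, 8.39, 9.16, 8.73 and 8.46, while control arrays ranged from 8.59 to 9.15 with a median of 9.07. Within the control diet replicates 1 to 4 lay at 9.01 to 9.15, and replicates 5 and 6 at 8.64 and 8.59, inside the range of the ketogenic arrays, while ketogenic replicate 3 lay above every control array. Npy averaged 8.66 ± 0.30 (SD, n = 5) on the ketogenic diet and 8.94 ± 0.26 (SD, n = 6) on the control diet, a log2 fold change of -0.28 (SE 0.14, 95% interval -0.57 to 0.02, limma adjusted p = 0.177). Without ketogenic replicate 3 the log2 fold change was -0.40 (SE 0.12, 95% interval -0.66 to -0.15, adjusted p = 0.0248), and Npy was then called lower. In that fit 26.6% of all tested probe sets were called and 13.3% were called lower. Its sign turned, to 0.20 (SE 0.21), once the 3 prime to 5 prime ratios entered the model. Over its 24 alternative settings the adjusted p of Npy ran between 0.0248 and 0.932. In whole tissue, fewer cells of a type and less RNA per cell cannot be told apart.

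Sst encodes somatostatin, a peptide of interneurons that contact the distal dendrites of principal cells. Ketogenic replicates 1 to 5 had Sst at 8.85, 8.58, 9.34, 8.96 and 8.67, and control arrays lay close together from 8.89 to 9.12 with a median of 9.05. Ketogenic arrays thus fell on both sides of the control arrays, with replicate 3 above all of them and replicates 1, 2 and 5 below all of them. The SD between arrays was 0.30 on the ketogenic diet and 0.08 on the control diet. The means were 8.88 on the ketogenic diet and 9.04 on the control diet, with a log2 fold change of -0.16 (SE 0.11, 95% interval -0.38 to 0.07, limma adjusted p = 0.324). Without ketogenic replicate 3 Sst was called lower, with a log2 fold change of -0.27 (SE 0.08, 95% interval -0.43 to -0.11, adjusted p = 0.0204), although ketogenic replicate 4 at 8.96 still lay above control replicate 2 at 8.89. It was -0.08 without ketogenic replicate 2 and -0.10 without ketogenic replicate 5. Once the 3 prime to 5 prime ratios entered the model it was 0.16 (SE 0.19). Over its 24 alternatives the adjusted p of Sst ran between 0.0204 and 0.938.

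Vip encodes vasoactive intestinal peptide, found in interneurons that mainly contact other interneurons. Its ketogenic values were 7.22, 7.29, 7.16, 7.12 and 7.09, and its control values ran from 6.70 to 7.30 with a median of 6.95. Of the control arrays replicates 1 and 5 alone reached the level of the ketogenic arrays, which lay close together. The log2 fold change was 0.21 (SE 0.11, 95% interval -0.02 to 0.43, limma adjusted p = 0.188), and it was 0.21 without ketogenic replicate 3 (adjusted p = 0.186). Vip was positive in all 24 alternatives and was called in 0 of them, with adjusted p between 0.0821 and 0.861.

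Cck encodes cholecystokinin, a peptide of one class of basket cell that is also made by principal cells. Ketogenic arrays had 9.92, 9.89, 10.26, 9.84 and 9.92, and control arrays 9.64 to 10.26 with a median of 9.96. Apart from ketogenic replicate 3 and control replicates 5 and 6, the 8 remaining arrays lay between 9.84 and 9.99. The log2 fold change was 0.01 (SE 0.09, 95% interval -0.19 to 0.21, limma adjusted p = 0.960). That interval holds for the main fit only. Once the 3 prime to 5 prime ratios entered the model the log2 fold change was -0.06 (SE 0.18). Without ketogenic replicate 3 it was -0.06 (95% interval -0.25 to 0.12, adjusted p = 0.615).

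The opioid precursors went different ways, without passing the test. Penk encodes the precursor of the enkephalins, and its ketogenic values were 7.76, 7.96, 8.47, 8.20 and 7.97, against control values of 7.91 to 8.52 with a median of 8.22. Its log2 fold change was -0.14 (SE 0.13, 95% interval -0.40 to 0.13, limma adjusted p = 0.467) and -0.24 without ketogenic replicate 3 (adjusted p = 0.136). It was -0.06 without ketogenic replicate 1 and -0.08 without control replicate 3. Once the 3 prime to 5 prime ratios entered the model it was 0.16 (SE 0.23). Pdyn encodes the precursor of the dynorphins. Ketogenic arrays had Pdyn at 6.23, 6.06, 5.94, 6.52 and 6.15, and control arrays at 5.19 to 6.41 with a median of 5.88. Control replicates 3 and 4, at 5.36 and 5.19, were the lowest of all arrays, and control replicate 1 was higher than every ketogenic array but replicate 4. The log2 fold change of Pdyn was 0.38 (SE 0.20, 95% interval -0.04 to 0.80, limma adjusted p = 0.195), the largest of the 8 tested genes, and its SD within diets was larger than that of 92.5% of tested probe sets. It was 0.44 without ketogenic replicate 3 (adjusted p = 0.137).

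**Figure D2:**
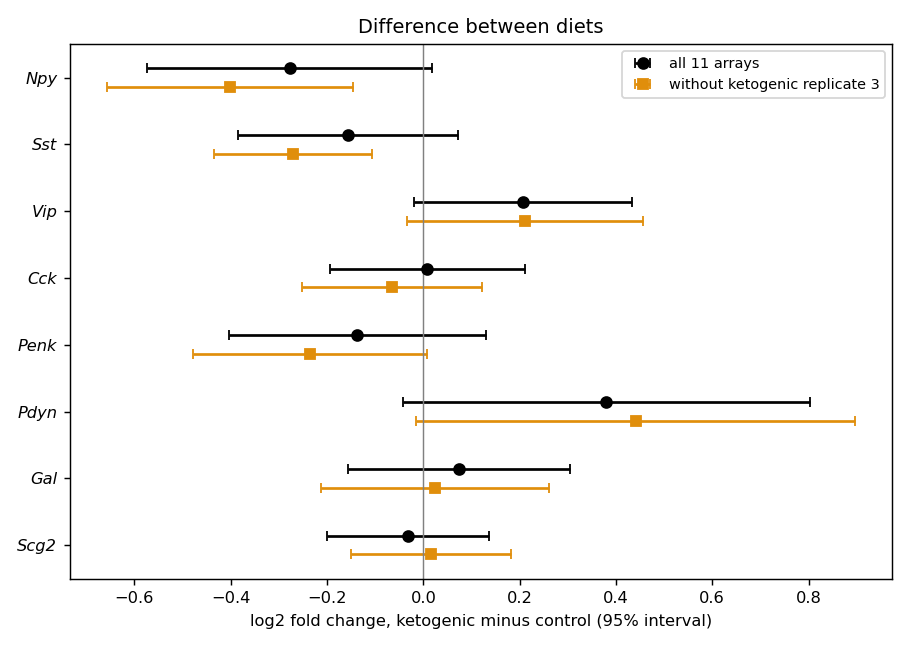
Log2 fold change, ketogenic minus control, of the 8 tested neuropeptide genes with its 95% interval from limma, for all 11 arrays (black circles) and without ketogenic replicate 3 (orange squares). With all arrays every interval contains 0, and without that array those of Npy (-0.66 to -0.15) and Sst (-0.43 to -0.11) lie below 0.

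Striatum is rich in Penk, Pdyn and Tac1, so markers of striatum were read beside them. Of 10 such markers other than these peptides 7 were tested, and 1 was called higher and 1 lower, against 8.62% called higher and 7.87% called lower over all tested probe sets. Rasd2, a small G protein, was called higher by its brighter probe set (0.40), while its other one had -0.23 (adjusted p = 0.186). Drd2, a dopamine receptor, was called lower (-0.62). The summed intensity of the 7, as log2, was 10.13 to 10.43 on ketogenic arrays and 10.23 to 10.57 on control arrays, and ketogenic replicate 3 had 10.43. The part of such tissue in the Penk and Pdyn values was not tested.

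Tac1, the precursor of substance P and neurokinin A, had too low a mean over all arrays (4.76, below the filter level of 5.17) and was not tested. Its ketogenic values were 5.44, 5.64, 5.61, 3.83 and 4.82 and its control values 2.37 to 5.42 with a median of 4.68. Both groups spread over more than 1 log2 unit, and control replicate 1 lay near the floor of the scale, a signal of 5.02. When dim probe sets were kept, the log2 fold change was 0.58 (SE 0.54, limma adjusted p = 0.518).

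Gal encodes galanin, which reaches the hippocampus largely in axons from the brainstem and basal forebrain. Its ketogenic values of 6.94, 7.12, 7.26, 6.88 and 7.10 lay within the control range of 6.69 to 7.27, whose median was 6.94. The log2 fold change was 0.07 (SE 0.11, 95% interval -0.16 to 0.31, limma adjusted p = 0.664). Scg2 encodes secretogranin II, a granin of dense core vesicles and the precursor of secretoneurin. It had 9.89, 9.68, 9.53, 9.71 and 9.81 on ketogenic arrays and 9.59 to 10.03, with a median of 9.72, on control arrays. The log2 fold change of Scg2 was -0.03 (SE 0.08, limma adjusted p = 0.811), and its 95% interval, -0.20 to 0.14, was the narrowest of the 8. Its SD within diets was larger than that of 31.5% of tested probe sets, the lowest such percentile of the 8 genes.

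Several of the peptide genes were high on one and the same ketogenic array. Ketogenic replicate 3 was the highest ketogenic array for 5 of the 8 tested genes, Npy, Sst, Cck, Penk and Gal, and the lowest of all 11 arrays for Scg2. Over all tested probe sets it was the highest ketogenic array in 27.8%. Relative to each gene's mean over the 11 arrays it stood at 0.34 for Npy, 0.37 for Sst, 0.30 for Cck and 0.32 for Penk, and at -0.21 for Scg2. Ketogenic replicate 2 stood at -0.43 for Npy, -0.38 for Sst and -0.19 for Penk, and replicate 5 at -0.36, -0.29 and -0.17 for the same genes. Sst and Scg2, whose promoter windows share TGACGTCA, deviated in opposite directions on ketogenic replicates 1, 3 and 5 and in the same direction on replicates 2 and 4. Sst stood at -0.11 and -0.29 on ketogenic replicates 1 and 5, where Scg2 stood at 0.15 and 0.07. On control replicates 1, 2, 4 and 5 they deviated in the same direction, with Scg2 at only 0.0002 on replicate 4. They deviated in opposite directions on control replicates 3 and 6. The part of the motif in these values was not tested. The mean of the interneuron and principal cell markers, relative to the control mean, was 0.04 on ketogenic replicate 3 and -0.06 to -0.02 on the other ketogenic arrays, against -0.06 to 0.08 on control arrays. Markers of neurons in general went the other way, at -0.18 on ketogenic replicate 3 and -0.08 to 0.03 on the other ketogenic arrays. Their range on control arrays was -0.06 to 0.05. Hippocampal principal cell markers stood at 0.15 on ketogenic replicate 3, 0.26 to 0.37 on the other ketogenic arrays and -0.19 to 0.28 on control arrays. On ketogenic replicate 3 the hybridisation controls, bacterial and phage RNA added at that step, had a mean log2 level of 8.91, at the top of the ketogenic range of 8.51 to 8.91 and above the control range of 8.24 to 8.54.

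**Figure D3:**
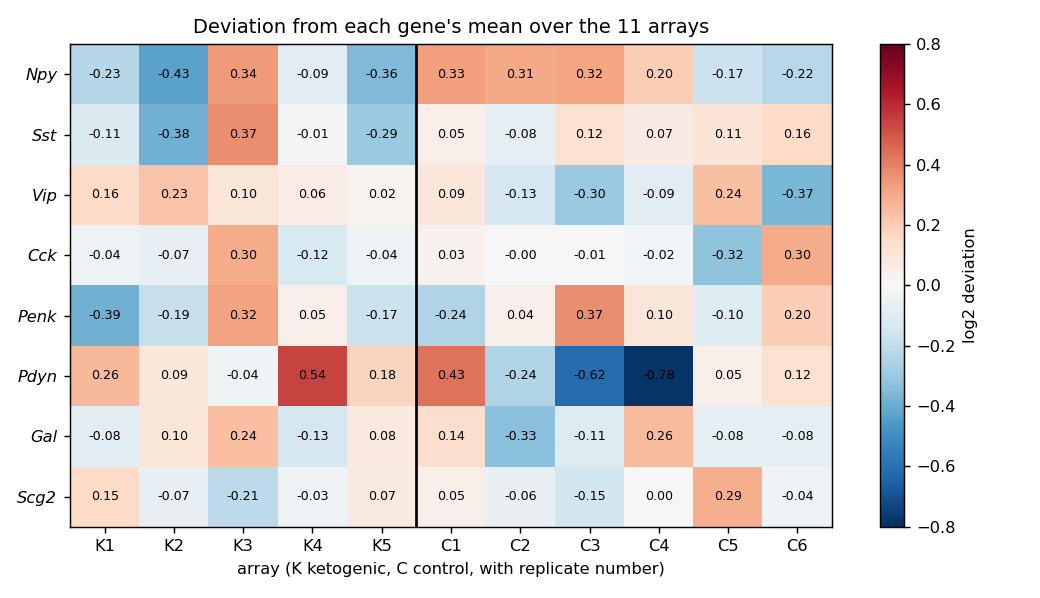
Deviation of each tested neuropeptide gene from its own mean over the 11 arrays, in log2 units, with ketogenic arrays (K) left of control arrays (C) and replicate numbers. The column of ketogenic replicate 3 shows 0.34 for Npy, 0.37 for Sst, 0.30 for Cck and 0.32 for Penk, and -0.21 for Scg2.

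The gene whose profile over the 11 arrays came closest to each neuropeptide gene was taken from 8389 other genes by the root mean square difference of mean-centred log2 values. For Sst it was Nxph1, which encodes a secreted ligand of neurexins, with a difference of 0.07 where the spread of Sst itself was 0.20. For Npy it was Araf, a protein kinase, at 0.12 against a spread of 0.29. Cck was closest to Mapk6 (0.07), Penk to Dnm3 (0.10), Pdyn to Mzf1 (0.17), Vip to Akr7a3 (0.10), Gal to Xrn2 (0.10) and Scg2 to Casp2 (0.07). Each is the nearest of many genes over few arrays, and no test was made of it.

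Of the receptors that these and related peptides act on, few passed the test while most had negative values. Of 15 tested receptor genes of 25 listed, 0 were called higher and 2 lower (limma), where 7.87% of all tested probe sets were called lower. The sign was negative in 14 of the 15, with a median log2 fold change of -0.29. The other tested probe sets of Npy5r and Sstr2 had the opposite sign. Those of Sstr1, Cckbr, Oprk1, Oprl1, Tacr1 and Adcyap1r1 had the same sign. Of the 15 receptors 14 had a mean log2 intensity below 8. So had 9114 of the 11899 tested probe sets, with a median of -0.01 and 51.5% negative. That background takes in most tested probe sets and is not matched to the receptors in signal level. The part of signal level in the receptor values was not tested. The mean of the 15 genes, relative to the control mean, was -0.43 to -0.13 on ketogenic arrays and -0.06 to 0.07 on control arrays, and the highest ketogenic value was again that of replicate 3. Without ketogenic replicate 3 the calls were 0 higher and 5 lower, on the deposited scale 10 lower, after centring each array on its 75th percentile 7 lower, and 0 with either the 3 prime to 5 prime ratios (median -0.25) or the level of all spike-in controls (median -0.30) in the model. Over all tested probe sets the share called lower was 13.3% without ketogenic replicate 3, 14.6% on the deposited scale, 11.5% after centring, 0.0504% with the ratios and 3.07% with the spike-in level.

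Both called receptors bind peptides of the neuropeptide Y family. The other tested receptor of that family, Npy5r, was not called (-0.27, limma adjusted p = 0.206). Npy2r, the Y2 receptor through which neuropeptide Y acts on mossy fibre and Schaffer collateral terminals, had 4.92, 4.92, 5.28, 5.22 and 5.05 on ketogenic arrays and 5.39 to 6.07, with a median of 5.64, on control arrays. Its groups did not overlap, and it fell by 0.61 in log2 units (SE 0.17, adjusted p = 0.0254). Its ketogenic mean of 5.08 lay below the filter level of 5.17, so it was tested only through its control values. Npy4r, a receptor with high affinity for pancreatic polypeptide, had 6.63, 6.10, 6.99, 6.25 and 6.45 on ketogenic arrays and 6.84 to 7.35, with a median of 7.08, on control arrays. It fell by 0.61 (SE 0.14, adjusted p = 0.0133), and ketogenic replicate 3 alone lay inside the control range. Npy2r was not called without control replicates 3 or 4 or ketogenic replicates 1 or 2 (adjusted p = 0.0581, 0.0552, 0.0528 and 0.0613). With the spike-in level in the model the adjusted p was 0.0701 for Npy2r (-0.59) and 0.0520 for Npy4r (-0.48).

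Genes that process peptides and fill dense core vesicles moved in both directions. Of 19 tested genes of 20 listed, 3 rose and 2 fell, against a background of 8.62% called higher and 7.87% called lower over all tested probe sets, and the median log2 fold change was 0.05. Ptprn2, which encodes the vesicle membrane protein phogrin, had 8.69, 8.64, 8.84, 8.61 and 8.51 on ketogenic arrays and 9.19 to 9.41, with a median of 9.28, on control arrays. The groups lay clearly apart, and Ptprn2 fell by 0.62 (SE 0.07, adjusted p = 0.000141), 1.54-fold lower. Pcsk2, prohormone convertase 2, which cuts the precursors of enkephalin, dynorphin and somatostatin, had 7.31, 7.50, 7.06, 7.78 and 7.65 on ketogenic arrays and 6.62 to 7.23, with a median of 6.90, on control arrays. It rose by 0.56 (SE 0.13, adjusted p = 0.0159), and of the ketogenic arrays replicate 3 alone lay inside the control range. Pam, the enzyme that amidates the ends of peptides such as neuropeptide Y, cholecystokinin and substance P, fell by 0.24 (SE 0.07, adjusted p = 0.0268). Pam was not called on values as deposited (-0.13) or centred on the 75th percentile (-0.10), nor without control replicates 2, 3 or 5 or ketogenic replicates 1, 2 or 4. Scg5, which encodes the 7B2 chaperone of that convertase, rose by 0.16 (SE 0.05, adjusted p = 0.0364) with no overlap between diets, and Cadps2, a priming factor of vesicle release, rose by 0.36 (SE 0.11, adjusted p = 0.0424). These last 2 were named after their values were seen, and each lost its call in most fits with 1 array left out. Once the 3 prime to 5 prime ratios entered the model, 0 of the 19 were called. Ptprn2 was then at -0.57 (SE 0.13) and Pcsk2 at 0.42 (SE 0.26), Scg5 at 0.11 and Pam at -0.03, and Cadps2 turned to -0.04.

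**Figure D4:**
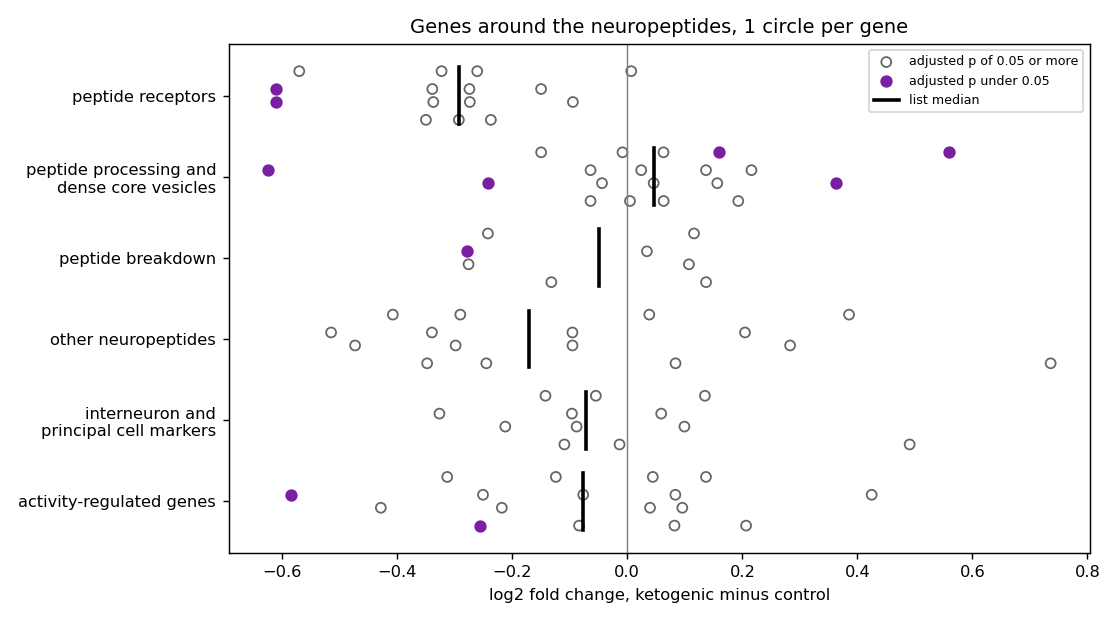
Log2 fold change, ketogenic minus control, of every tested gene in 6 lists around the neuropeptides, 1 circle per gene, filled where the adjusted p was under 0.05, with the list median as a bar. The receptors have 2 filled circles and a median of -0.29, and the processing genes 5 filled circles on both sides of 0.

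Among genes that break peptides down, Ide, the insulin-degrading enzyme, which also cleaves somatostatin, fell by 0.28 (SE 0.08, adjusted p = 0.0332), and it was the only one called of 8 tested, where 7.87% of all tested probe sets were called lower. Its dimmer probe sets had -0.09 and 0.08 and were not called. Its call was lost without control replicates 3, 4 or 5 or ketogenic replicates 1, 2, 4 or 5. Of 16 tested genes for other neuropeptides 0 were called (limma), against 16.5% of all tested probe sets. Among the 16, 5 had an unadjusted p under 0.05, against 33.3% of all tested probe sets, and the median of the 16 was -0.17. The smallest p was that of Npff, the precursor of neuropeptide FF, at -0.51 in log2 units (SE 0.18, adjusted p = 0.0586) and with a call without ketogenic replicate 3 (-0.65, adjusted p = 0.0122). In that fit 3 of the 16 were called lower, against 6 on the deposited scale and 4 after centring each array on its 75th percentile, settings in which 13.3%, 14.6% and 11.5% of all tested probe sets were called lower.

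Of 12 tested markers of interneurons and principal cells 0 were called (limma), with 2 at an unadjusted p under 0.05 and a median of -0.07. Over all tested probe sets 16.5% were called and 33.3% had an unadjusted p under 0.05. Pvalb, the calcium-binding protein of fast-spiking basket cells, had 6.75, 7.65, 7.59, 7.21 and 7.84 on ketogenic arrays and 6.72 to 7.25, with a median of 6.86, on control arrays. Its log2 fold change was 0.49 (SE 0.17, adjusted p = 0.0542), and without ketogenic replicate 1, the lowest of its group, it was called (0.66, adjusted p = 0.0133). In that fit 10.2% of all tested probe sets were called. With 1 array left out, 1 of the 12 markers was called higher without ketogenic replicate 1 or control replicate 4, and 0 in the other such fits. Activity-regulated genes, several of which precede peptide gene induction after seizures, had 0 called higher and 2 lower of 17 tested, with a median of -0.08, against 8.62% called higher and 7.87% called lower over all tested probe sets. Egr1, an early transcription factor, fell by 0.26 (SE 0.08, adjusted p = 0.0383), and Egr3, another of that family, fell by 0.58 (SE 0.18, adjusted p = 0.0442). Egr1 was not called on values as deposited (-0.16) or centred on the 75th percentile (-0.13). The call of Egr1 was lost without control replicates 3, 4, 5 or 6 or ketogenic replicates 2, 4 or 5, and that of Egr3 without control replicates 2, 3, 5 or 6 or ketogenic replicates 1, 4 or 5.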

How the data were processed

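The table deposited by the authors holds 1 linear intensity per probe set and array. How the scans were turned into these intensities is not stated in the labels or the file. After trimming 2% at each end, every array had a mean between 150.023 and 150.028. The deposited intensities were quantile normalized between arrays, raised to a floor at their 5th percentile (5.02) and taken as log2 intensity. The 57 control probe sets and the 25% with the lowest mean (below 5.17) were not tested, leaving 11899. limma 3.58.1 in R 4.3.3 (lmFit, eBayes with a variance trend, two-sided) compared ketogenic minus control, with p-values adjusted by Benjamini-Hochberg across the 11899 and called under 0.05. The fit was tested on simulated data with independent normal noise. Of 100 changes of 0.5 log2 units 60 were called, and of 100 changes of 1 log2 unit 90. Of all 161 calls 11 were false. The number of arrays limits the precision.

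Gene symbols are those of the platform annotation, brought up to date by gene identifier with RefSeq (GRCr8). A listed gene was represented by its brightest tested probe set. The members and lists were chosen with earlier results of these data known. Named genes were every member, up to 3 called genes with the smallest p from each list (otherwise the 1 with the smallest p), and each member's closest profile. The promoter search had been planned for members that moved together and was run for all, as a description. Alternatives changed the scaling, filter, floor, weights, variance model, covariates, replicate block, threshold or 1 array at a time. The covariate of hybridisation controls alone and the recount of the lists under each alternative were chosen after seeing the data.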

Additional observations from a re-analysis of the deposited data

Results flagged for a closer look

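Cck on ketogenic replicate 3 was flagged as far from the other ketogenic arrays, at 10.26 against 9.92 for the nearest of them. Tac1 on control replicate 1 was flagged as far from the other control arrays, at 2.37 against 4.62 for the nearest, with a deposited signal of 5.42. Chance flags about 1 in 20 groups, or 0.9 of the 18 groups of values looked at, and 2 were flagged.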

How the results depend on the processing

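The count of called probe sets, 1962 in the main setting, was 3136 with array weights, 6 with the 3 prime to 5 prime ratios in the model, 767 with the level of all spike-in controls as a covariate and 3070 at a threshold of 0.1. It ran between 806 and 3165 with 1 array left out, at 1169, 1256 and 1263 without control replicates 2, 3 and 5, and at 1212, 855, 3165, 806 and 1235 without ketogenic replicates 1 to 5. Of the calls 52.3% were higher, against 38.3% on values as deposited. Neuropeptide genes called numbered 1 with array weights (Npy, -0.37), where 26.4% of all tested probe sets were called. They numbered 2 with the hybridisation controls as a covariate (Npy, -0.66, and Sst, -0.50), where 11.4% were called. The level of these controls on ketogenic arrays (8.51 to 8.91) barely overlapped that on control arrays (8.24 to 8.54). Its exact permutation p was 0.00649 (adjusted p = 0.00812), so that fit cannot cleanly tell diet and hybridisation level apart. With 1 array left out 0 to 2 were called, the 2 without ketogenic replicate 3, where 26.6% of all tested probe sets were called. With the replicate number as a block 1 was called, Npy at -0.35 (limma adjusted p = 0.0462), where 15.3% of all tested probe sets were called. Same-numbered arrays correlated at only 0.009 to 0.077 in their deviations. Of 5 ketogenic arrays 2 matched their own number best, so the numbers are not taken as pairs.

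With the 3 prime to 5 prime ratios in the model the signs turned for Npy (0.20), Sst (0.16), Penk (0.16), Cck (-0.063) and Cadps2 (-0.038). The SEs in that fit were 0.21 for Npy, 0.19 for Sst, 0.23 for Penk and 0.18 for Cck. Because the actin ratios did not overlap between diets, that fit cannot tell diet and RNA quality apart. Cck also turned with array weights (-0.013), with the hybridisation covariate (-0.19) and in fits without 1 array (-0.065 to 0.068). Gal turned on values as deposited (-0.012) and with the hybridisation covariate (-0.15). Scg2 turned on values as deposited (0.092), centred on the 75th percentile (0.13), with the hybridisation covariate (0.14) and in fits without 1 array (-0.074 to 0.023). The cause was not tested. Pdyn and Vip kept their sign in all alternatives that tested them, 23 and 24. Signal over background limits Tac1, which lay below the filter on dim probe sets.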
